A study of Homo sapiens with 29 samples.

Results

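Creatine kinases and the genes that supply creatine were followed in LHCN-M2 cells, an immortalized line of human myoblasts, after knockdown of the transcription factor ZNF148. The members were 6 of the 22439 genes that the RefSeq accessions of the array named: *CKM*, *CKB* and *CKMT2*, which code for creatine kinases, *SLC6A8*, the creatine transporter, and *GATM* and *GAMT*, the enzymes of creatine synthesis. They were chosen by name and not by a cut on their values, though earlier results of these data were known. They had 7 of the 58201 probes, 1 each except for *SLC6A8* with 2, and all 7 passed the filter on low signal.

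Cells were transfected with 20 nM of nontargeting siRNA (labelled siControl) or of siRNA against *ZNF148* (siZNF148). In growth media, RNA was taken from subconfluent cells at 24 h and from confluent cells at 48 and 96 h. In differentiation media it was taken at 48 and 96 h. There were 29 arrays in 10 groups, with 3 arrays in each group except for nontargeting siRNA in growth media at 96 h, which had 2. No group was untransfected, all groups came from 1 cell line, and the replicates were labelled as biological replicates. In differentiation media the hours may start when the media were changed, later than the transfection, and equal hours in both media need not be equal times after transfection.

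Creatine kinase moves phosphate between ATP and creatine, so that phosphocreatine buffers ATP where it is used. The muscle subunit, *CKM*, partly sits at the M-band of the sarcomere, and *CKMT2* codes for the sarcomeric form of the mitochondrial enzyme. The brain subunit, *CKB*, is made in many tissues and is known in muscle as the form of myoblasts and early myotubes, with *CKM* taking over as myotubes mature. Muscle takes up most of its creatine from blood through *SLC6A8*, while *GATM* makes guanidinoacetate from arginine and glycine and *GAMT* methylates it to creatine.

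The 250 bases before the start of 4 members are shown because these genes code for both cytosolic kinases, the mitochondrial kinase and the first enzyme of synthesis. The sequences are RefSeq's, in the build GRCh38.p14, 5′ to 3′ on the strand of the gene. Capitals mark the letters CANNTG (an E-box, the kind of site that myogenic factors such as MYOD can bind), GGGCGG (a GC box) and TATAAA, each searched on both strands.
CKM, chr19:45322876-45323125, minus strand: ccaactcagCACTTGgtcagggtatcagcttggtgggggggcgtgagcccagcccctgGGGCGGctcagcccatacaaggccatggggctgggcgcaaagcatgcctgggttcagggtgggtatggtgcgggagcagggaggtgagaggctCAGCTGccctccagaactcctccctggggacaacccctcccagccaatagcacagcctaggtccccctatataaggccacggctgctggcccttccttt
CKB, chr14:103522831-103523080, minus strand: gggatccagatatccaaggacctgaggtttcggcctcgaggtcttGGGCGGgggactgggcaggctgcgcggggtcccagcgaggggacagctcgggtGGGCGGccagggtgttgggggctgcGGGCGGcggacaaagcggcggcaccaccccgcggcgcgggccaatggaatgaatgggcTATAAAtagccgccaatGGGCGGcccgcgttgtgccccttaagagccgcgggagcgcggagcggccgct
CKMT2, chr5:81233072-81233321, plus strand: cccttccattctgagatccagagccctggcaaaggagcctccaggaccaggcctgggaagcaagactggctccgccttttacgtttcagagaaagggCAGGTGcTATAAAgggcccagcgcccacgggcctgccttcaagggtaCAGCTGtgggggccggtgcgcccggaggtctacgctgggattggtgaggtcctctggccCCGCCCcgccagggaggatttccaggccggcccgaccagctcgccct
GATM, chr15:45378545-45378794, minus strand: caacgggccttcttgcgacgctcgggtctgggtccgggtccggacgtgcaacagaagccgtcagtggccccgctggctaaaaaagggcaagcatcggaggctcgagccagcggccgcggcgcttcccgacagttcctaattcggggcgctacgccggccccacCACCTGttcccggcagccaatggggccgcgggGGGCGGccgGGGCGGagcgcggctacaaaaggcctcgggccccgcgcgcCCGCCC
The *CKM* and *CKMT2* windows each held 2 E-boxes and 1 GC box, the *GATM* window 1 E-box and 3 GC boxes, and the *CKB* window 4 GC boxes without the E-box letters. *CKB* had TATAAA inside a match to the MEF2 motif, and *CKMT2* had TATAAA beside an E-box. Of 27305 windows of the same length, 62.2% held an E-box, 42.3% a GC box, 11.1% TATAAA and 2.9% the MEF2 motif. The window of *SLC6A8* held 4 GC boxes and none of the other motifs, and *GAMT* had no entry in the table.

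Values are quantile-normalized log2 signals, in which 1 unit is a doubling, and each probe has its own brightness, so that levels are compared between samples and not between genes. A gene was called changed at an adjusted p under 0.05, over all 38714 probes tested with limma, and a change over 2-fold. Before the members, the targeted gene and the arrays were checked. *ZNF148* fell by 1.53, 2.07 and 2.31 on the log2 scale at 24, 48 and 96 h in growth media and by 2.34 and 2.74 at 48 and 96 h in differentiation media (limma, adjusted p from 7.49e-13 to 4.30e-08). On no array was any of the 6 myoblast markers below background. From 48 h on, each group had all 5 markers of differentiated muscle above background on all its arrays, whereas at 24 h only 1 of them was, with siZNF148. Among the nontargeting cultures in growth media at 48 h, the array of replicate 1 stood apart. Its *MYOG*, a factor of early differentiation, was at 9.42 against 5.92 and 5.76 on the other arrays of its group, and its *MEF2C* was at 13.82 against 9.39 and 9.46, while its *ZNF148* was at 8.51, against 8.85 and 9.19 in its group, the lowest of the 14 nontargeting arrays (8.51 to 9.83). This array widens the errors of all comparisons, since they share 1 estimate of the spread. Results that depend on it are given also for the other 28 arrays. It was singled out by its muscle genes, and its *CKM* was high too, at 16.03 against 5.83 and 5.91 in its group. Leaving it out thus raises the *CKM* difference there and narrows the errors by the choice itself. The p-values over the 28 arrays are therefore no independent support.

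In growth media *CKM* rose with the knockdown at both later times, and in differentiation media it rose at 48 h. At 24 h its signal was not well above background on any array of either siRNA, at 2.12, 2.10 and 2.64 with nontargeting siRNA and 2.10, 2.12 and 2.14 with siZNF148. At 48 h in growth media the nontargeting arrays gave 16.03, 5.83 and 5.91, and the siZNF148 arrays 17.27, 17.31 and 17.37. The siZNF148 arrays lay closely together and above all nontargeting arrays, also above the array that stood apart. The groups of this comparison did not overlap for 62.7% of all genes tested. The values at 96 h in growth media were 9.79 and 9.75 with nontargeting siRNA and 17.34, 17.41 and 17.44 with siZNF148. *CKM* was higher with siZNF148 by 8.06 ± 1.52 (log2 difference ± SE) at 48 h (limma, adjusted p = 0.00013). This SE rests on the spread shared by all groups, while the nontargeting arrays of this comparison had an SD of 5.86. The call was lost in 3 of 20 alternatives. At 96 h *CKM* was higher by 7.63 ± 1.70 (adjusted p = 0.000792). Without the array that stood apart the difference at 48 h was 11.45 ± 0.29 (adjusted p = 2.16e-17). Within slides it was 1.29 on the slide that held this array and 11.55 and 11.36 on the other slides.

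In differentiation media *CKM* was measured on all nontargeting arrays, each below the siZNF148 arrays. At 48 h the nontargeting arrays gave 11.54, 10.81 and 9.73 and the siZNF148 arrays 17.90, 17.86 and 17.85. At 96 h the nontargeting arrays had reached 14.09, 14.33 and 14.48, while the siZNF148 arrays were at 17.90, 17.93 and 17.90. The groups did not overlap at either time, as for 70% and 65.4% of all genes tested at 48 and 96 h. The difference was 7.18 ± 1.52 at 48 h (limma, adjusted p = 0.000351), and within the 3 slides it was 8.17, 6.32 and 7.05. At 96 h it was 3.61 ± 1.52 and missed the threshold (adjusted p = 0.0565), whereas over the 28 arrays it was 3.61 ± 0.26 and passed (adjusted p = 2.92e-10). With siZNF148 the means at both times and in both media from 48 h on lay between 17.32 and 17.91. No spot of these arrays was marked as saturated.

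**Figure D1:**
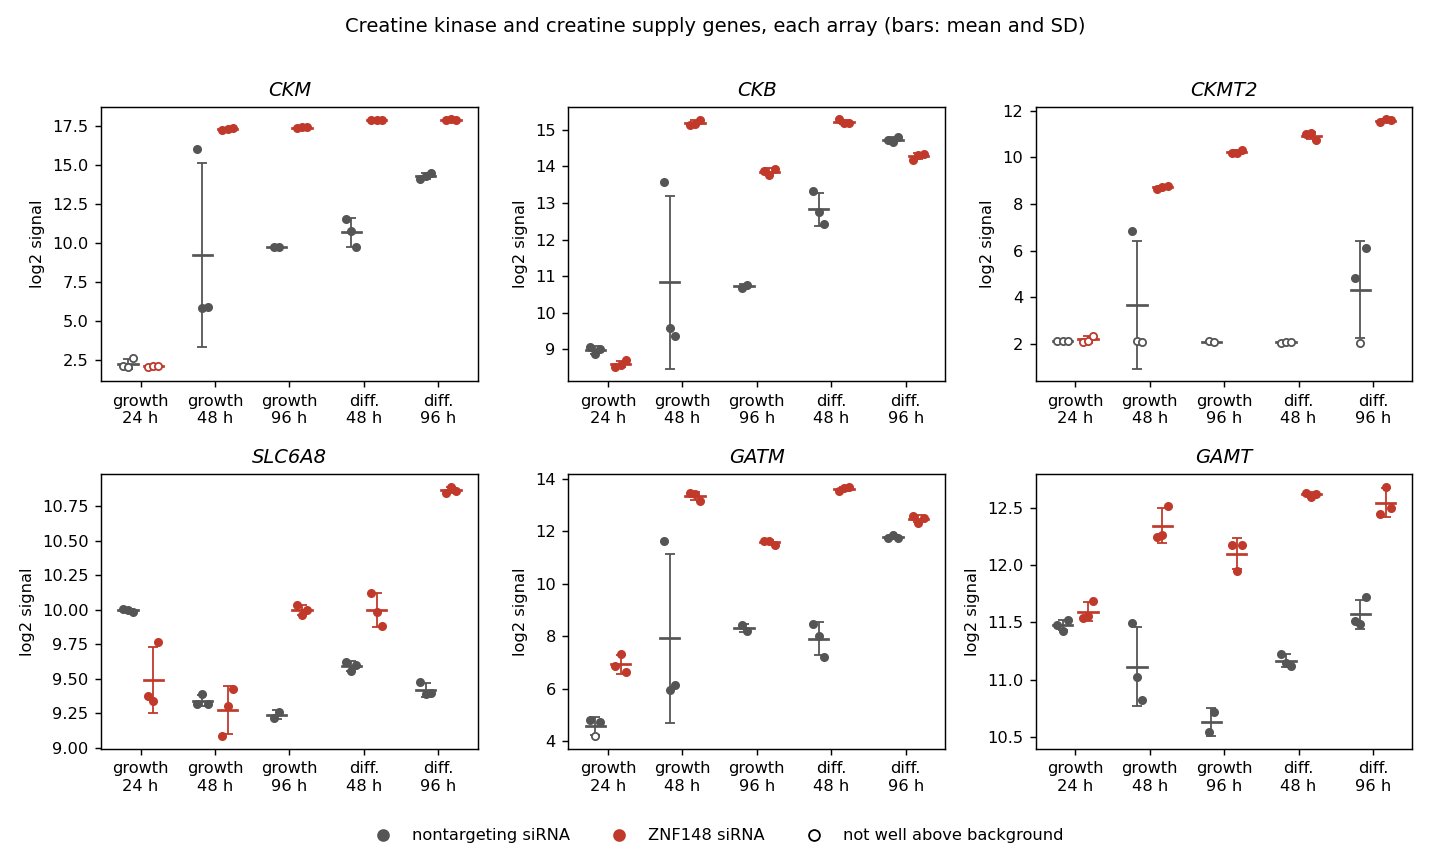
Log2 signal of each member on each array (points), with the mean and SD of each group (bars), for nontargeting siRNA (grey) and siZNF148 (red) by media and hours; open points were not well above background. From 48 h on the siZNF148 arrays of *CKM* and *CKMT2* lie above all nontargeting arrays, while for *CKB* the order is turned at 96 h in differentiation media, with means of 14.72 and 14.27.

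*CKB* rose with the knockdown too, but from a level that was measured in undifferentiated cells. At 24 h it was at 9.08, 8.88 and 9.002 with nontargeting siRNA, and its mean was 8.60 ± 0.09 (SD, n = 3) with siZNF148. The nontargeting arrays at 48 h in growth media gave 13.56, 9.59 and 9.36, against a mean of 15.18 ± 0.07 (SD, n = 3) with siZNF148. It was higher by 4.34 ± 0.62 (limma, adjusted p = 4.4e-06), and by 5.71 ± 0.16 without the array that stood apart (adjusted p = 5.7e-17). At 96 h in growth media the means were 10.72 ± 0.07 (SD, n = 2) and 13.85 ± 0.09 (SD, n = 3), a difference of 3.13 ± 0.69 (adjusted p = 0.000714).

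In differentiation media the *CKB* difference was 2.38 at 48 h, and at 96 h its sign was turned, with a size under 2-fold. The nontargeting arrays gave 13.31, 12.75 and 12.42 at 48 h, and the siZNF148 arrays 15.28, 15.19 and 15.17, a difference of 2.38 ± 0.62 (limma, adjusted p = 0.00234). At 96 h the nontargeting arrays gave 14.71, 14.66 and 14.80 and the siZNF148 arrays 14.18, 14.32 and 14.32. Every siZNF148 array was thus below every nontargeting array at 96 h, by -0.45 ± 0.62 on average, which did not pass the threshold (adjusted p = 0.601, 95% confidence interval from -1.74 to 0.84). Groups that did not overlap were seen for 65.4% of all genes tested in this comparison. Over the 28 arrays the *CKB* difference had an adjusted p of 0.00986 (95% confidence interval from -0.74 to -0.16) but stayed under 2-fold. As *CKB* is named for brain, 5 neural and glial markers were read beside it. *SNAP25* and *RBFOX3* were above background on all arrays, *GFAP* on at most 1 array of a group. *STMN2* was well above background on all 3 arrays of each siZNF148 group from 48 h on and on at most 1 array of any other group. *MBP* was above background on all arrays from 48 h on. The mean of *SNAP25* at 48 h in differentiation media was 11.72 with nontargeting siRNA and 8.05 with siZNF148, and that of *STMN2* was 2.28, below background, and 6.02. The log2 of the summed signals of the 5, in which bright probes weigh most, did not overlap between siRNAs there. It ran from 12.01 to 12.81 with nontargeting siRNA and from 10.01 to 11.24 with siZNF148. At 24 h it did not overlap either, from 10.21 to 10.25 and from 9.96 to 10.18. The ranges overlapped at 48 h in growth media (11.18 to 11.70 and 10.37 to 11.20), at 96 h in growth media (11.30 to 11.41 and 10.71 to 11.42) and at 96 h in differentiation media (11.17 to 11.59 and 10.84 to 11.61). Their part in the *CKB* signal was not tested.

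*CKMT2*, the mitochondrial kinase of sarcomeric muscle, was seen almost only with siZNF148. At 24 h it was not well above background on any array. At 48 h in growth media the nontargeting arrays gave 6.84, 2.10 and 2.07, of which only the first, the array that stood apart, was well above background. The siZNF148 arrays gave 8.64, 8.72 and 8.79, and the difference was 5.05 ± 0.88 (limma, adjusted p = 5.56e-05). Against the other 2 nontargeting arrays, both below background, *CKMT2* was at least 20.3-fold higher over the 28 arrays (adjusted p = 1.19e-08). At 96 h in growth media the siZNF148 arrays were at 10.18, 10.20 and 10.31 and neither nontargeting array was well above background, so that *CKMT2* was at least 69.5-fold higher with siZNF148 (adjusted p = 5.89e-07). The same held at 48 h in differentiation media, where siZNF148 gave 10.99, 11.03 and 10.76 and the bound was at least 125-fold (adjusted p = 1.64e-08). These bounds set the dim arrays to the lowest signal of any probe that was well above background on each. That floor is not the detection limit of the *CKMT2* probe itself, so the bounds are approximate.

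At 96 h in differentiation media *CKMT2* came up on some nontargeting arrays, at 4.81, 2.03 and 6.10, where the second was not well above background. The siZNF148 arrays gave 11.53, 11.64 and 11.59. The difference was 7.27 ± 0.88 (limma, adjusted p = 5.09e-07). With siZNF148 the group means of *CKMT2* were in the order 8.72, 10.23, 10.93 and 11.59 from 48 h in growth media, over 96 h in growth media and 48 h in differentiation media, to 96 h in differentiation media, and no neighbouring groups overlapped.

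*SLC6A8*, which brings creatine into the cell, was present on all arrays and moved little. Its brighter probe was at 10.004, 9.998 and 9.986 with nontargeting siRNA at 24 h and at 9.37, 9.34 and 9.77 with siZNF148, a fall by 0.50 ± 0.09 that was under 2-fold (limma, adjusted p = 0.000285). The group means at 48 h in growth media, 9.34 and 9.27, differed by -0.07 ± 0.09 (adjusted p = 0.608). The siRNA groups did not overlap in the other later comparisons. This held for 75% of all genes tested at 96 h in growth media, and for 70% and 65.4% at 48 and 96 h in differentiation media. At 96 h in growth media the *SLC6A8* difference was 0.76 ± 0.10 (adjusted p = 2.75e-06), and at 48 h in differentiation media it was 0.40 ± 0.09 (adjusted p = 0.000751). The nontargeting arrays at 96 h in differentiation media gave 9.48, 9.39 and 9.39 and the siZNF148 arrays 10.85, 10.89 and 10.86. There *SLC6A8* was higher by 1.45 ± 0.09, the only time it was past 2-fold (adjusted p = 2.84e-11).

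The second probe of *SLC6A8* did not follow the first at each time. Its differences were -0.16 ± 0.07 at 24 h, -0.45 ± 0.07 at 48 h and 0.17 ± 0.08 at 96 h in growth media. They were -0.15 ± 0.07 at 48 h and 0.87 ± 0.07 at 96 h in differentiation media. Those at 48 h in growth media (limma, adjusted p = 2.16e-05) and at 96 h in differentiation media (adjusted p = 2.31e-09) passed the adjusted p, both under 2-fold. Both probes thus were lower at 24 h and higher at 96 h, and they had opposite signs at 48 h in differentiation media. *SLC6A8* has a near-identical pseudogene, *SLC6A10P*, whose probe followed it most closely of all genes, so the transcript behind each probe is uncertain.

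*GATM*, the first step of synthesis, was the only member past the threshold at 24 h. There the nontargeting arrays gave 4.82, 4.20 and 4.73, the second of them not well above background, and the siZNF148 arrays 6.88, 7.34 and 6.62. The difference was 2.36 ± 0.85 (limma, adjusted p = 0.0492). Over the 28 arrays it was 2.36 ± 0.23 (adjusted p = 1.05e-07), but with normexp background correction it was 1.09 and did not pass (adjusted p = 0.292). Leaving out any 1 of the 6 arrays at 24 h also ended the call.

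At later times *GATM* rose with the knockdown in growth media and at 48 h in differentiation media. At 48 h the nontargeting arrays gave 11.63, 5.97 and 6.16 and the siZNF148 arrays 13.44, 13.40 and 13.16, a difference of 5.41 ± 0.85 (limma, adjusted p = 1.56e-05). Without the array that stood apart it was 7.27 ± 0.25. At 96 h the nontargeting arrays gave 8.41 and 8.22 and the siZNF148 arrays 11.61, 11.64 and 11.49, a difference of 3.26 ± 0.95 (adjusted p = 0.00749). In differentiation media *GATM* was higher by 5.70 ± 0.85 at 48 h (adjusted p = 5.62e-06), with means of 7.91 ± 0.64 and 13.61 ± 0.08 (SD, n = 3 each). At 96 h the nontargeting arrays had come up to 11.73, 11.86 and 11.76, and the siZNF148 arrays were at 12.59, 12.32 and 12.51. The groups still did not overlap, as for 65.4% of all genes tested. The *GATM* difference of 0.69 ± 0.85 did not pass the threshold (adjusted p = 0.555, 95% confidence interval from -1.08 to 2.47).

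*GAMT*, which finishes creatine, was present on all arrays and rose by a smaller amount. The means at 24 h were 11.47 ± 0.05 with nontargeting siRNA and 11.59 ± 0.08 with siZNF148 (SD, n = 3 each), which did not differ past the threshold (limma, adjusted p = 0.59). The nontargeting arrays at 48 h in growth media gave 11.50, 11.02 and 10.82 and the siZNF148 arrays 12.24, 12.26 and 12.52. It was higher by 1.23 ± 0.12 at 48 h (adjusted p = 3.83e-08), and the 96 h cultures differed by 1.47 ± 0.14 (adjusted p = 1.55e-08). In differentiation media it was higher by 1.45 ± 0.12 at 48 h (adjusted p = 1.3e-09). At 96 h the difference of 0.97 ± 0.12 passed the adjusted p (9.37e-07) and fell just short of 2-fold. The *GAMT* probe carries the accession of 1 transcript variant, and other variants were not analysed here.

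Counted together, all member calls past 2-fold were higher with the knockdown, while *SLC6A8* at 24 h passed the adjusted p with a fall under 2-fold. The counts of members that were higher were 1 of 6 at 24 h, where 2.46% of all 18398 genes tested were higher, 5 of 6 at 48 h (11.7% of all genes) and 5 of 6 at 96 h in growth media (12.3%). They were 5 of 6 at 48 h (15.1%) and 2 of 6 at 96 h (10.5%) in differentiation media. The 5 were the same genes at the 3 times with 5, all members except *SLC6A8*, and the 2 at 96 h in differentiation media were *CKMT2* and *SLC6A8*. Over the 28 arrays *CKM* joined these 2 (10.7% of all genes higher), and the other counts were as before. No member was called lower in these 5 comparisons. In RNA from whole cultures, fewer cells of a kind and less RNA in each cell cannot be told apart. The log2 of the summed signals of the 5 markers of differentiated muscle, in which bright probes weigh most, was read beside the members. At 48 h in growth media it ran from 11.16 to 18.52 on the nontargeting arrays and from 19.48 to 19.55 on the siZNF148 arrays. At 96 h in differentiation media it ran from 17.77 to 17.93 and from 19.79 to 19.82. Not every member followed this sum. The *SLC6A8* means hardly differed at 48 h in growth media, and the *CKB* mean was lower with siZNF148 at 96 h in differentiation media. The part of this sum in the member values was not tested.

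**Figure D2:**
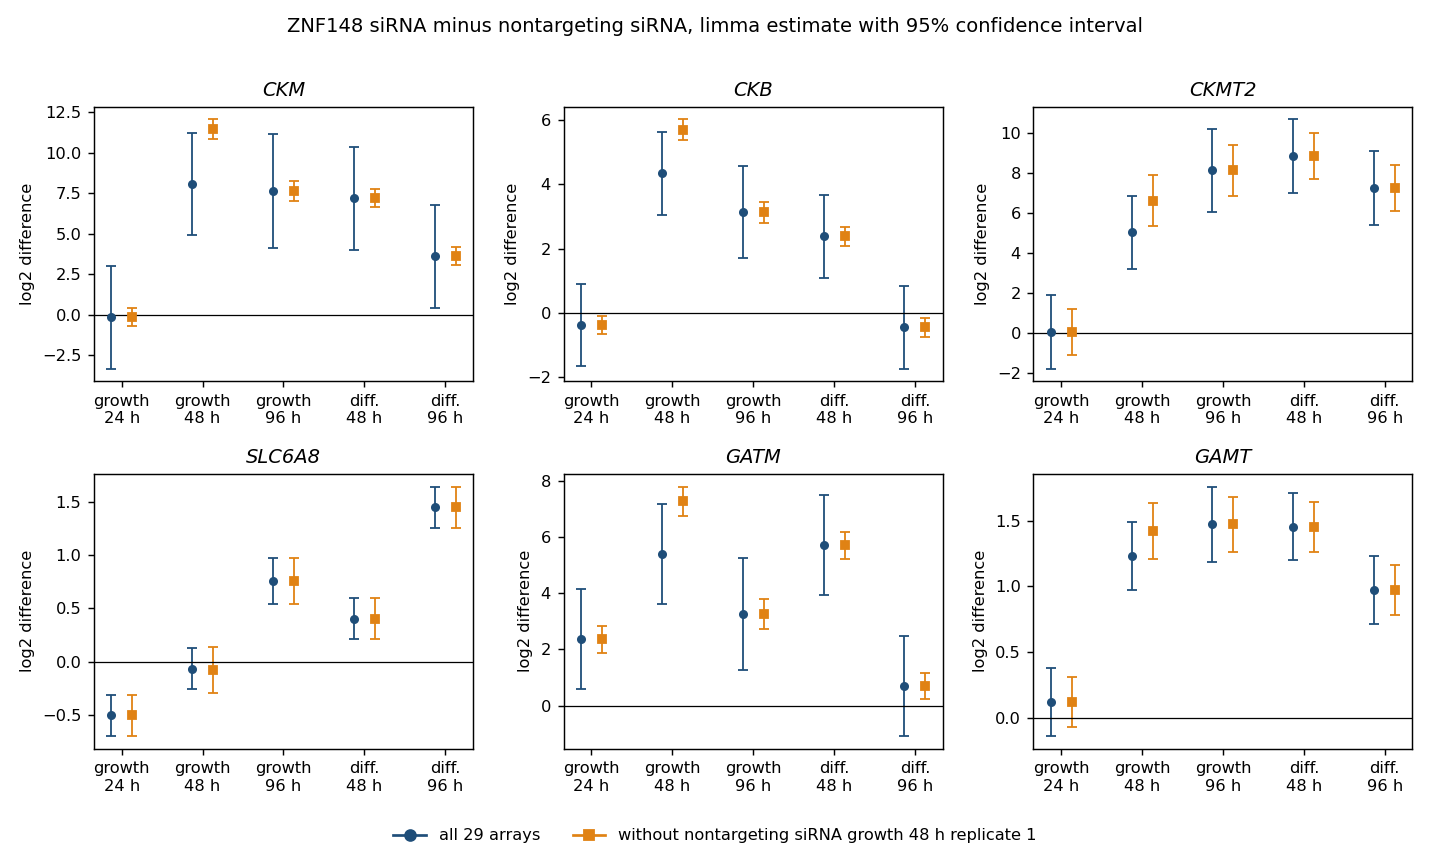
Log2 difference of siZNF148 minus nontargeting siRNA for each member, by media and hours, as limma estimates with 95% confidence intervals over all 29 arrays (circles) and over 28 arrays, without the array that stood apart (squares). Leaving out that array moves the *CKM* estimate at 48 h in growth media from 8.06 to 11.45 and narrows the *CKM* interval at 96 h in differentiation media, while the *SLC6A8* intervals hardly change.

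The muscle and the brain isoform were then set against each other within each array. As every probe has its own brightness, the *CKM* minus *CKB* value has no meaningful zero, and only its shift between groups was read. At 24 h *CKM* was below background, and the shift of 0.22 is not a measured ratio. At 48 h in growth media the nontargeting arrays gave 2.47, -3.76 and -3.45 and the siZNF148 arrays 2.14, 2.15 and 2.11. The first nontargeting array thus had a balance like that of the siZNF148 arrays, and the shift was 3.72 (exact permutation test, two-sided, p = 0.4) or 5.74 without it. At 96 h in growth media the values were -0.88 and -1.02 against 3.47, 3.65 and 3.51, a shift of 4.496 towards *CKM*.

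In differentiation media the shift towards *CKM* with siZNF148 was of like size. It was 4.79 at 48 h, from a mean of -2.13 ± 0.49 to 2.66 ± 0.04 (SD, n = 3 each), and 4.06 at 96 h, from -0.42 ± 0.17 to 3.64 ± 0.07. The groups did not overlap in any of these last 3 comparisons, and the exact permutation p was 0.1 in each, the smallest that groups of this size allow. With nontargeting siRNA the mean also shifted by 1.71 towards *CKM* from 48 to 96 h in differentiation media (exact permutation p = 0.1). With siZNF148 it shifted by 1.41 in growth media and by 0.98 in differentiation media from 48 to 96 h (exact permutation p = 0.1 each). In these siZNF148 groups the shift came with lower *CKB* signals, by -1.33 and -0.94, and *CKM* differences of 0.08 and 0.04.

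**Figure D3:**
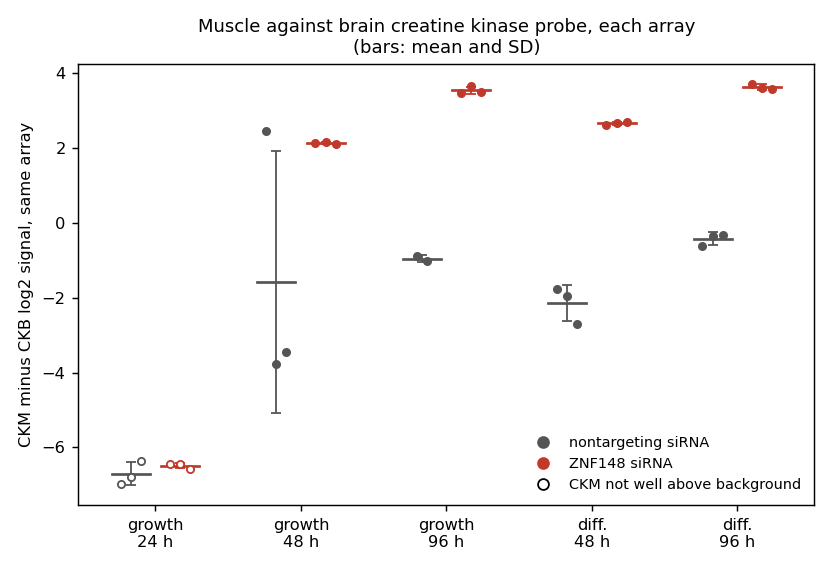
*CKM* minus *CKB* log2 signal within each array (points), with the mean and SD of each group (bars), for nontargeting siRNA (grey) and siZNF148 (red); open points are arrays where *CKM* was not well above background. From 96 h in growth media on, the siZNF148 arrays lie between 2.62 and 3.72 and the nontargeting arrays below 0, and at 48 h in growth media 1 nontargeting array lies at 2.47.

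The change to differentiation media was compared within each siRNA. With nontargeting siRNA, 1 of 6 members was higher than in growth media at 48 h (7.77% of all genes tested), *CKB* by 1.99 ± 0.62 (limma, adjusted p = 0.0131). This call was lost in 6 of 20 alternatives, where it was lowest without nontargeting replicate 3 in growth media (1.25, adjusted p = 0.119), also lost without replicate 2 there (1.37) or without replicate 1 in differentiation media (1.75), and it had its highest adjusted p, 0.409, in the methods' t-test. At 96 h 3 of 6 were higher (6.81% of all genes): *CKM* by 4.53 ± 1.70 (adjusted p = 0.0445), *CKB* by 4.00 ± 0.69 (adjusted p = 8.72e-05) and *GATM* by 3.47 ± 0.95 (adjusted p = 0.00664). These are the muscle kinase, the brain kinase and the first enzyme of synthesis. No slide held arrays of both groups of this comparison at 96 h, so that media and slide cannot be told apart in it. *GAMT* was higher by 0.94 ± 0.14, under 2-fold. Without the array that stood apart *CKM* and *GATM* were also higher at 48 h, by 4.82 ± 0.29 and 1.84 ± 0.25 (9.14% of all genes), and *CKMT2* was called at 96 h (adjusted p = 0.00667), where its signal in growth media was below background and the bound was at least 1.15-fold (7.27% of all genes). The call of *CKM* at 96 h was lost in 9 of 20 alternatives, among them leaving out any 1 of its 5 arrays, and with slide as a block the difference was 3.39 (adjusted p = 0.215).

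With siZNF148 the change of media went with smaller differences. No member was called by limma at 48 h (1.13% of all genes higher and 2.84% lower) or at 96 h (1.45% and 4.95%). At these times 3 and 2 members had an unadjusted p under 0.05, for which no share over all genes was counted. The adjusted p alone was passed by 1 and 2 members, and by 19.1% and 28.5% of all genes. *SLC6A8* was higher in differentiation media by 0.72 ± 0.09 at 48 h and by 0.87 ± 0.09 at 96 h (adjusted p = 9.71e-06 and 4.57e-07), under 2-fold, and its second probe gave 0.83 and 0.89. *CKMT2* was called at 48 h over the 28 arrays, higher by 2.21 ± 0.55 (adjusted p = 0.00719, 1.43% of all genes).

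Between 48 and 96 h, members rose in the nontargeting cultures in differentiation media. There 2 of 6 were higher at 96 h (5.76% of all genes), *CKB* by 1.896 ± 0.62 (limma, adjusted p = 0.0218) and *GATM* by 3.87 ± 0.85 (adjusted p = 0.00113). *CKM* differed by 3.61 ± 1.52 (adjusted p = 0.0779), and by 3.61 ± 0.26 over the 28 arrays, where *CKMT2*, below background at 48 h, was called as well (adjusted p = 0.00274, 6.15% of all genes). In growth media with nontargeting siRNA no member was called by limma (0.402% of all genes higher and 0.0326% lower). There 1 had an unadjusted p under 0.05, for which no share over all genes was counted. Without the array that stood apart, *CKM* was higher at 96 h by 3.90, *CKB* by 1.24 and *GATM* by 2.25 (1.6% of all genes). With siZNF148 no member was called by limma between these times in growth media (4.13% of all genes higher and 1.82% lower) or in differentiation media (4.33% and 3.72%). Here 2 and 1 had an unadjusted p under 0.05, again without a share over all genes. The adjusted p alone was passed by 1 member in each media, and by 29% and 36.8% of all genes. Over the 28 arrays, *CKB* fell by 1.33 and *GATM* by 1.75 with siZNF148 in growth media (2.13% of all genes lower). In differentiation media *GATM* fell by 1.14 with siZNF148 (3.92%). *SLC6A8* was higher at 96 h with siZNF148 in growth media by 0.72 ± 0.09 and in differentiation media by 0.87 ± 0.09, both under 2-fold and past the adjusted p.

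The knockdown effects themselves differed between times in growth media. The effect at 48 h exceeded that at 24 h for 4 of 6 members (10.3% of all genes), and the effect at 96 h exceeded that at 24 h for 5 of 6 (11.6%). The arrays at 24 h came from subconfluent cells and lay on a slide and scan of their own. Time, confluence and slide therefore cannot be told apart. At 24 h *CKM* and *CKMT2*, which are among these members, were below background with both siRNAs. Between media, the effect on *CKB*, taken with its sign, was lower in differentiation media at 96 h by -3.59 ± 0.93 (limma, adjusted p = 0.00652). The signed effect was called lower for 6.93% of all genes, a share that can hold genes with a larger fall. Over the 28 arrays the signed effects on *CKM*, *CKB* and *GATM* were lower in differentiation media at both times. They differed by -4.27, -3.32 and -1.56 at 48 h (10.3% of all genes called lower) and by -4.03, -3.59 and -2.57 at 96 h (8.07%). In growth media the signed effects on *CKM*, *CKB* and *GATM* were lower at 96 h than at 48 h, by -3.82, -2.57 and -4.00 (3.54%).

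The order of the groups differed among the members. *CKM* and *CKMT2* had the 4 siZNF148 groups from 48 h on at the top of their 10 groups, and *GAMT* had them there too. *CKB* was highest with siZNF148 at 48 h in both media, at 15.21 and 15.18, which overlapped, followed by nontargeting siRNA at 96 h in differentiation media at 14.72. *GATM* was likewise highest with siZNF148 at 48 h in differentiation and growth media, at 13.61 and 13.33, which did not overlap. *SLC6A8* was highest with siZNF148 at 96 h in differentiation media, at 10.87, and next came 3 groups that overlapped, among them nontargeting siRNA at 24 h.

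Over the 29 arrays, which share their groups, *CKM* and *CKB* correlated with r = 0.96 and *CKM* and *GATM* with r = 0.95, while *SLC6A8* reached at most 0.58, with *GAMT*. The genes whose pattern over the 29 arrays was most like a member were *TNNT3*, *MYH3* and *SMPX* for *CKM* (Pearson r from 0.996 to 0.997), where *TNNT3* codes for a fast troponin T and *MYH3* for embryonic myosin heavy chain. They were *PACS2*, *TSPAN33* and *CBFA2T3* for *CKB* (0.982 to 0.991), and *RRAGD*, *DPYSL5* and *SLN* for *CKMT2* (0.983 to 0.990). They were *CHRND*, *RIPOR2* and *CHRNB1* for *GATM* (0.985 to 0.987), of which *CHRND* and *CHRNB1* code for subunits of the muscle acetylcholine receptor. For *GAMT* they were *SGSM3*, *PCCB* and *RMND5B* (0.967 to 0.972), and for *SLC6A8* they were *SLC6A10P*, *COQ6* and *ANKRD26* (0.914 to 0.979).

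Genes around the creatine kinase system were read from lists. The M-band proteins *MYOM1*, *MYOM2* and *MYOM3*, the structure to which the muscle kinase binds, were all higher with siZNF148 from 48 h on in both media, 3 of 3 in each of these 4 comparisons. At 24 h their differences lay between -0.54 and -0.11 (limma, adjusted p from 0.82 to 0.978). Their median log2 difference was 4.56 and 5.54 at 48 and 96 h in growth media and 5.72 and 4.22 in differentiation media, against -0.05, -0.03, -0.05 and -0.06 over all genes tested. Without the array that stood apart the median at 48 h in growth media was 6.11. At 48 h in differentiation media *MYOM1* was higher by 7.53 ± 1.14, *MYOM3* by 5.72 ± 0.71 and *MYOM2* by 4.63 ± 0.40 (adjusted p from 1.99e-09 to 6.37e-06).

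Of the adenylate kinases and AMP deaminases, which handle ADP and AMP when ATP is used, 10 of 11 were tested. Of these 3 were higher and 3 lower at 48 and at 96 h in growth media, 4 were higher and 3 lower at 48 h and 2 higher and 1 lower at 96 h in differentiation media. Over all genes tested, the shares called lower were 12.2% and 12.4% at 48 and 96 h in growth media and 17.3% and 12.8% in differentiation media, beside the shares called higher of 11.7%, 12.3%, 15.1% and 10.5%. *AMPD1*, the muscle AMP deaminase, was higher by 7.40 ± 1.05 at 48 h in differentiation media (limma, adjusted p = 2.94e-06), and *AMPD3* fell by 4.05 ± 0.16 in the same comparison (adjusted p = 4.65e-15). *AMPD1* and *AMPD3* thus moved in opposite directions. *AK4*, a mitochondrial adenylate kinase, fell by 2.62 ± 0.11 at 48 h in growth media (adjusted p = 1.34e-13).

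Of the genes for ADP/ATP exchange across the mitochondrial membranes, 6 of 7 were tested and only *SLC25A4*, the exchanger of heart and muscle, was called, higher from 48 h on in both media. At 48 h in differentiation media it was higher by 3.80 ± 0.23 (limma, adjusted p = 7.4e-12), with means of 10.80 and 14.60. The other carriers *SLC25A5* and *SLC25A6* and the 3 *VDAC* genes were not called in any of the 5 comparisons. Of *CKMT1A*, the other mitochondrial creatine kinase, and *SLC16A12*, another creatine transporter, neither was called, *SLC16A12* differing by at most -0.39 ± 0.07, at 96 h in differentiation media (limma, adjusted p = 3.52e-05). In each comparison *CKMT1A* was below background on some of the arrays.

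Of the genes that supply arginine, glycine and methyl groups, 16 of 17 were tested. At 24 h 2 were higher and 1 lower, at 48 and 96 h in growth media 2 and 1 were higher and 4 and 4 lower, and in differentiation media 2 and 3 were higher and 3 and 4 lower. At 24 h 2.46% of all genes were higher and 3.08% lower, and the shares at the later times were those given above. *SLC7A1*, a carrier of arginine, was higher by 2.86 ± 0.15 at 48 h in differentiation media (limma, adjusted p = 5.68e-13). *ARG2*, a mitochondrial arginase, was higher by 2.35 ± 0.32 at 48 h in growth media (adjusted p = 2.15e-06). *SHMT1*, which makes glycine from serine in the cytosol, fell by 2.12 ± 0.29 at 96 h in growth media (adjusted p = 3.08e-06). The counts of all these lists were the same over the 28 arrays.

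**Figure D4:**
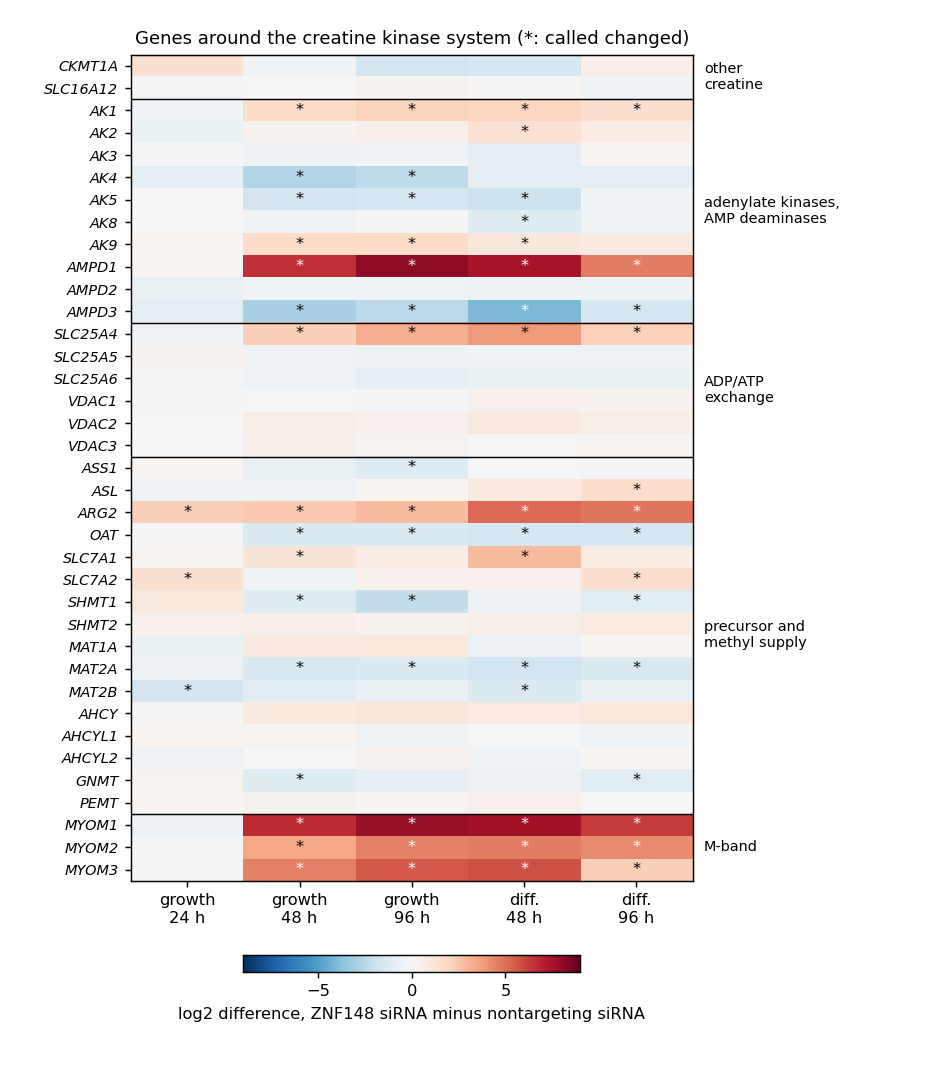
Log2 difference of siZNF148 minus nontargeting siRNA (colour) for the tested genes of 5 lists around the creatine kinase system (rows), in the 5 comparisons by media and hours (columns); asterisks mark genes called changed. The M-band genes are higher in the 4 comparisons from 48 h on, *AMPD1* and *AMPD3* have opposite colours there, and *SLC25A4* is the only called gene of the ADP/ATP exchange list.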

How the data were processed

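Cultures were measured on 1-colour Agilent arrays, 1 array each. The authors read the scans with Feature Extraction (10.7.3.1 per the file headers), and the deposited intensities are background-subtracted and not scaled between arrays. A log2 matrix deposited by the authors served as an alternative. Each of its 29 columns matched its own array (r of at least 0.999998), and it differed from the printed values by up to 0.045. Control and outlier spots were left out, signals were put on the log2 scale, spots of a probe were averaged and arrays quantile-normalized. All group means were fitted together with limma 3.58.1 in R 4.3.3 over the 38714 probes whose signal exceeded background on 2 or more arrays. Calls needed an adjusted p (Benjamini-Hochberg, two-sided) under 0.05 and over 2-fold.

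Probes were named through RefSeq accessions (GRCh38.p14 table), and a gene is given by its brightest tested probe. Detected probes made up 41.5% to 56.5% per array, and the number of arrays limits the precision. All arrays at 24 h lay on 1 of 4 slides. Named genes were the 6 members, *ZNF148*, *MYOG* and *MEF2C*, up to 3 genes of each list with the largest called difference among those detected throughout both groups, and the 3 genes most correlated with each member. Any other gene was named after its values were seen. The members and lists were chosen with earlier results of these data known. The fit was tested on simulated data.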

Additional observations from a re-analysis of the deposited data

Results flagged for a closer look

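Differences between knockdown effects (siZNF148 minus nontargeting siRNA) were called, past the adjusted p of limma and over 2-fold, for 11 of 30 member and contrast pairs. Of all genes tested, 20.6%, 22.9% and 5.01% were called either way in growth media for 48 against 24 h, 96 against 24 h and 96 against 48 h. Between media the shares were 17.2% at 48 h and 12.5% at 96 h. From 24 to 48 h in growth media the effect grew by 8.23 on the log2 scale for *CKM* (adjusted p = 0.00444), by 4.73 for *CKB* (adjusted p = 0.000192), by 4.97 for *CKMT2* (adjusted p = 0.00323) and by 1.11 for *GAMT* (adjusted p = 3.16e-05). From 24 to 96 h it grew by 7.79 for *CKM*, by 3.52 for *CKB*, by 8.07 for *CKMT2*, by 1.35 for *GAMT* and by 1.26 for *SLC6A8* (adjusted p from 2.79e-07 to 0.0097). At 24 h *CKM* and *CKMT2* were below background with both siRNAs, so that these values rest on an effect that was not measured at 24 h.

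Between media, the fitted effects on *CKMT2* at 48 h differed by 3.82 (adjusted p = 0.0225), but this is no measured difference, since *CKMT2* was below background on all nontargeting arrays in differentiation media and on all but 1 in growth media. The effect on *CKB* at 96 h differed by -3.59 (adjusted p = 0.00652). The *CKB* means behind it were 10.72 and 13.85 in growth media and 14.72 and 14.27 in differentiation media, with the nontargeting means farther apart than the siZNF148 means. The fitted *CKMT2* value at 48 h was 2.23 over the 28 arrays (adjusted p = 0.0435), where only bounds hold on both sides.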

How the results depend on the processing

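Of the alternatives over all single tests, 2180 values kept their side of the threshold, 38 lost a call, 95 gained one and 3 reversed, with a call and another sign. The 2180 include values that changed sign without a call, such as *CKM* from 48 to 96 h with nontargeting siRNA in growth media (-1.20 to 3.90 over the alternatives). The reversed values came from leaving out the array that stood apart. *CKB* from 48 to 96 h with nontargeting siRNA in growth media was -0.12, and -0.85 to 1.24 leaving out 1 array. *GATM* between media with nontargeting siRNA at 48 h was -0.01, and -0.99 to 1.84. The difference between *GATM* effects in both media at 48 h was 0.29, and -1.56 to 1.27. Members changed at 24 h numbered 1, but 0 with no filter, normexp, averaged probes or trended and robust variances, 2 with no fold threshold, and 0 to 1 leaving out 1 array. At 48 h in growth media 5 were changed, but 1 by the methods' t-test after Benjamini-Hochberg, and at 96 h in differentiation media 2 were, but 4 with 75th percentile scaling or slide as a block, and 2 to 3 leaving out 1 array. Calls between media numbered 4, but 7 with array weights, 9 with no fold threshold and 3 to 8 leaving out 1 array. Calls between 48 and 96 h numbered 2, but 6 with array weights, 7 with the arrays of the comparison only or the methods' t-test (adjusted or not), 5 with no fold threshold, 4 with normexp and 1 to 10 leaving out 1 array. Differences between effects numbered 11, but 17 with array weights and 10 to 20 leaving out 1 array. The *CKM* minus *CKB* shift leaving out 1 array ran from 0.09 to 0.39, 2.63 to 5.74 and 4.43 to 4.56 at 24, 48 and 96 h in growth media and from 4.52 to 4.98 and 3.96 to 4.11 at 48 and 96 h in differentiation media. The cause of each change was not tested. Replicate numbers did not pair the samples (1 of 14 correlations over 0.1), and with the replicate block the counts of members changed stayed at 1, 5, 5, 5 and 2. Below background only bounds hold, which limits *CKM* at 24 h and *CKMT2* at 24 h and in the nontargeting groups.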
